A study of Mus musculus with 11 samples.

Results

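The 6 genes described here are the cardiac myosin heavy chains Myh6, Myh7 and Myh7b, the sarcomeric actins Acta1 and Actc1, and Ankrd1. They were chosen by symbol, through their Ensembl identifiers in GENCODE mouse release 21, and are 6 of the 22608 genes of a table of estimated RNA-seq counts from the hearts of 11 male mice. CD mice carry a complete deletion, on one homologue, of the interval between Gtf2i and Fkbp6 that corresponds to the Williams–Beuren syndrome (WBS) critical region, and WT mice are their littermates on the C57BL/6J background, 8 to 16 weeks old. Vehicle was injected in 2 WT mice (WT VEH) and in 3 CD mice (CD VEH), and JZL184 in 3 mice of each genotype (WT JZL184 and CD JZL184). JZL184 inhibits monoacylglycerol lipase, which breaks down the endocannabinoid 2-arachidonoylglycerol, and was given daily at 8 mg/kg for 10 days. Vehicle mice are called untreated in the treatment field of the labels and vehicle in their titles, and were taken as VEH. The tissue is labelled heart with ventricle as its source. Sex, background and daily injection were the same in all groups, and the deletion was not limited to a cell type or tissue.

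Myosin heavy chains are the motors of the thick filament, and the alpha-actins build the thin filament on which they pull. The adult mouse ventricle relies on the fast alpha-myosin encoded by Myh6 and on cardiac alpha-actin encoded by Actc1. The fetal ventricle also uses the slower beta-myosin of Myh7 and the skeletal alpha-actin of Acta1, and a return of these fetal isoforms in the adult is a classic mark of pressure overload in rodents. Ankrd1 encodes the cardiac ankyrin repeat protein, which binds titin in the I-band and also enters the nucleus, and is induced by stretch.

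Myh6 (ENSMUSG00000040752, chr14:54941921-54966927, minus strand, GRCm38) and Myh7 (ENSMUSG00000053093, chr14:54970684-54994626, minus strand) lie head to tail with 3756 bases between them. Myh7b (ENSMUSG00000074652) lies at chr2:155611212-155634307 on the plus strand. Acta1 (ENSMUSG00000031972) is at chr8:123891769-123894751, Actc1 (ENSMUSG00000068614) at chr2:114047282-114053548 and Ankrd1 (ENSMUSG00000024803) at chr19:36111961-36120099, all on the minus strand. The longest transcripts of the 3 myosins have 6113, 6230 and 6163 bases, against 1446 bases for Acta1, 1473 for Actc1 and 2020 for Ankrd1. None of the 6 genes lies on chromosome 5, which holds the deleted interval.

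Each of the myosin genes carries a microRNA inside an intron, a feature that sets the 3 apart from the actins and Ankrd1 here. The RefSeq sequences (GRCm38.p6) of their main mature strands are shown because they share most of the seed, bases 2 to 8, which is given in capitals. The first lies in intron 29 of Myh6 at chr14:54949072-54949093, the next in intron 31 of Myh7 at chr14:54975710-54975731 and the last in intron 19 of Myh7b at chr2:155622893-155622913. The seed of the Myh6 and Myh7 microRNAs is the same, and that of the Myh7b microRNA differs from it in its last base. Levels of these microRNAs were not analysed here.
mmu-miR-208a-3p: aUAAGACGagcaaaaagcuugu
mmu-miR-208b-3p: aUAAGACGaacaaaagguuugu
mmu-miR-499-5p: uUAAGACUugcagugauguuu

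The 250 bases upstream of the RefSeq starts of the alpha-actin pair are shown because these genes diverged most in the data below. Capitals mark matches to a CArG box, the element bound by serum response factor, and, in Acta1, also to CATTCC (the MCAT element of TEAD factors) and TATAAA. Both strands were searched for these motifs, for GATAA (the core of a GATA factor site), for GGGCGG (a GC box) and for CACGTG (an E-box), and none of the marked matches overlaps another. A CArG box was found in 1.47% of the 32851 promoters of the same length, CATTCC in 12.6% and TATAAA in 12.4%. It lay at bases -73 to -64 of Acta1 and at bases -47 to -38 of Actc1, and in no window of the other members. In Acta1 the CATTCC match lay at bases -46 to -41 and the TATAAA match at bases -7 to -2, which is -31 to -26 from the GENCODE start 24 bases further downstream. Acta1 is read from chr8:123894776-123895025 and Actc1 from chr2:114052876-114053125, both on the minus strand of GRCm38.p6.
Acta1: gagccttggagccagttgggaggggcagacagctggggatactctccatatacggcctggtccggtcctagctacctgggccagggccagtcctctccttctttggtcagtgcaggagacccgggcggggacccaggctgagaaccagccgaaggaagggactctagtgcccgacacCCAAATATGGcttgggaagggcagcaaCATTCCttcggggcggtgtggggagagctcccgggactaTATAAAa
Actc1: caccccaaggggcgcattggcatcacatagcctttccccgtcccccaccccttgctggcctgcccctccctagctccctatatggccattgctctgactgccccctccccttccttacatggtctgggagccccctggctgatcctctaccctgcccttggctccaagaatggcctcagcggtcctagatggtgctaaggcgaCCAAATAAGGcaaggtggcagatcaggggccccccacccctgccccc

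CATTCC was also found on the opposite strand of the Myh6 window (bases -206 to -201), of the more upstream of the Myh7 windows (bases -201 to -196) and of the Ankrd1 window (bases -210 to -205 and -123 to -118). GATAA, present in 22.6% of all promoters, was found in Myh7b and Ankrd1. GGGCGG (32.7% of all promoters) was found in Acta1, and CACGTG (6.02%) in Myh7b. These matches describe letters in a window and do not show that a factor binds there.

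Total estimated counts were between 69660329 and 92251550 per mouse, so that 3 counts corresponded to 0.0325 to 0.0431 CPM (counts relative to library size, corrected by TMM factors), and all 6 genes were far above that floor in every mouse. The 6 genes passed the filter on low counts, together with 11313 other genes, and held 1.41% to 2.51% of all counts in each mouse. The 14 tested genes of the deleted interval were lower in every CD mouse than in any WT mouse, and ventricular marker genes (Myl2, Myl3, Tnni3, Irx4, Hey2) were present in every heart. Of the 5 atrial markers, Myl7, Sln and Bmp10 stayed under 1 CPM, Myl4 reached 1.69 CPM and Nppa, which the stressed ventricle also makes, was at 49.1 to 219.6 CPM. Their sum was 170.2 and 194 CPM in WT VEH, 111 to 220.5 in WT JZL184, 50.4 to 147 in CD VEH and 74.0 to 125 in CD JZL184. Across tested genes, the deviation of each mouse from the mean of all mice changed with transcript length. This length slope, in log2 units per doubling of length, was positive in WT VEH (0.0469 and 0.0898) and CD JZL184 (0.0394 to 0.0816), negative in CD VEH (-0.0898 to -0.0424), and between -0.0924 and 0.000662 in WT JZL184. The share of mitochondrial genes was 39.4% and 41.2% in WT VEH, 36.4% to 40.2% in CD JZL184, 43.5% to 44.7% in CD VEH and 45.0% to 46.6% in WT JZL184.

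Per kilobase of transcript, the order of the levels was the same in all 4 groups. Actc1 was highest, followed by Myh6, Ankrd1, Acta1, Myh7 and Myh7b. In WT VEH hearts Actc1 reached 4649 ± 406 CPM per kilobase (SD, n = 2), Myh6 2473 ± 49.5, Ankrd1 304 ± 38.4, Acta1 148 ± 10.6, Myh7 33.7 ± 11.4 and Myh7b 11.8 ± 0.511. Neighbours in this order did not overlap between mice in either WT group. In both CD groups, the values of Acta1 and Myh7 overlapped, with means of 31.4 and 16.2 CPM per kilobase in CD VEH and of 34.8 and 26.4 in CD JZL184. Among the 3 myosins, counted per length, Myh6 made up 97.8% to 99.0% in every mouse, Myh7 0.716% to 1.68% and Myh7b 0.274% to 0.490%.

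**Figure D1:**
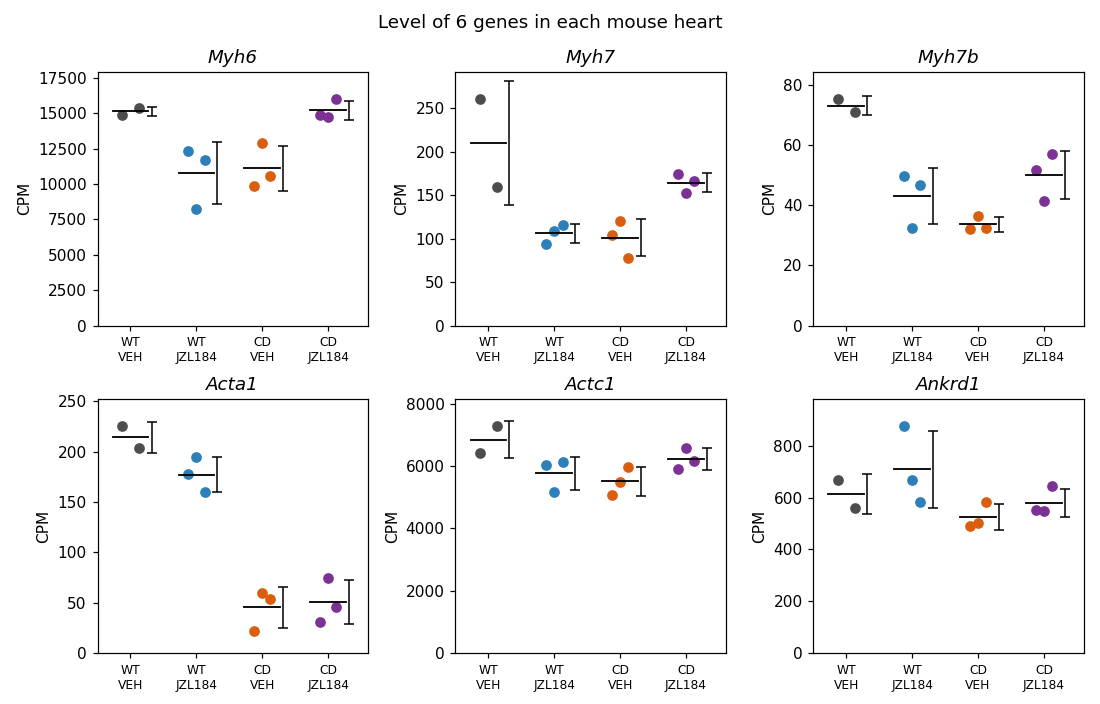
CPM of the 6 genes in each of the 11 hearts, by group; points are mice, horizontal bars are means and error bars are SD (n = 2 in WT VEH, n = 3 in the others). Myosin points are lower in WT JZL184 and CD VEH than in WT VEH, and every Acta1 point of the CD mice (22.3 to 74.1 CPM) lies under every WT point (160 to 225 CPM).

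The basal comparison asked how vehicle-treated CD hearts differed from vehicle-treated WT hearts. All 3 myosins and both actins fell, with Acta1 at 4.71-fold lower, Myh7b at 2.17-fold lower, Myh7 at 2.08-fold lower, Myh6 at 1.36-fold lower and Actc1 at 1.24-fold lower levels in CD VEH. Ankrd1 did not pass the test. Thus 5 of 6 members fell, where 15.4% of all genes tested fell, and none rose, where 15.0% of all genes did (edgeR, adjusted p under 0.05). In both directions together 30.4% of all genes passed, and this share fell to 3.4% without WT VEH mouse C, 10.7% without WT VEH mouse D, 17.0% without CD VEH mouse A and 17.5% without CD VEH mouse E, so that calls lost without these mice were lost across all genes too. In these bulk samples, fewer cells of a type and less RNA per cell cannot be told apart.

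Acta1, the skeletal alpha-actin, showed the largest difference among the members. It was at 225 and 203 CPM in the WT VEH mice C and D, and at 22.3, 60.0 and 54.1 CPM in the CD VEH mice A, C and E. The CD VEH values lay far below the WT VEH values, and CD VEH mouse A was the lowest of all 11 mice. This mouse also had the highest sum of blood markers (Hba-a1, Hbb-bs and Alas2), at 11767 CPM against 884 to 3335 CPM in the other 10 mice, and the part of blood RNA in its value was not tested. The log2 fold-change was -2.24 (SE 0.37, adjusted p = 0.0033), and the call held when each mouse was left out (-2.49 to -1.91). The 8 skeletal muscle markers summed to 1.79 to 2.96 CPM in the 11 hearts, most of it from Tnni2 (0.734 to 1.53 CPM), Mylpf (0.592 to 1.02 CPM) and Tnnt3 (0.182 to 0.434 CPM), which were present in every mouse. The fast skeletal myosins Myh1, Myh2 and Myh4 were at 0 in 4, 3 and 7 mice.

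The partner actin Actc1 moved much less. Its levels were 6424 and 7271 CPM in WT VEH and 5058, 5482 and 5975 CPM in CD VEH. The groups did not overlap, but their nearest mice lay close together. The log2 fold-change was -0.31 (SE 0.11, adjusted p = 0.043), and the call was lost without CD VEH mouse A or C or either WT VEH mouse (adjusted p = 0.0695 to 0.278). With the length offset the difference was larger (-0.48, adjusted p = 0.0136).

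Myh6, the main motor of the adult mouse ventricle, was at 14904 and 15332 CPM in WT VEH, and at 9886, 12898 and 10572 CPM in CD VEH. All CD VEH mice were below both WT VEH mice. The log2 fold-change was -0.44 (SE 0.16, adjusted p = 0.0493), at the edge of the threshold. The call was lost without CD VEH mouse A or E or either WT VEH mouse (adjusted p = 0.125 to 0.183), and with an offset for transcript length (-0.33, adjusted p = 0.123).

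Myh7, the slow beta-myosin, was at 260 CPM in WT VEH mouse C and 159.6 CPM in mouse D, and at 104, 120.3 and 78.0 CPM in CD VEH. The CD VEH mice were below both WT VEH mice, which differed widely from each other. The log2 fold-change of -1.06 (SE 0.19, adjusted p = 0.00452) became -0.66 without WT VEH mouse C and then missed the threshold (adjusted p = 0.0635), with the lone mouse assumed to vary like the other groups.

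Myh7b, a slow-type myosin gene known as the host of the miR-499 microRNA, was at 75.2 and 70.8 CPM in WT VEH and at 32.2, 36.5 and 32.3 CPM in CD VEH. The groups were tight and far apart. The log2 fold-change was -1.12 (SE 0.16, adjusted p = 0.00238), with -1.18 to -1.07 when each mouse was left out and -0.998 (adjusted p = 0.00324) with the length offset. Myh7b shared 0.273% of its 31-base words with other genes, whereas Myh6 shared 29.1% with Myh7 and Myh7 shared 22.5% with Myh6, so that reads from Myh6 and Myh7 may be divided between them by the estimation.

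Ankrd1 was at 669 and 559 CPM in WT VEH and at 491, 503 and 584 CPM in CD VEH. The groups overlapped, and the log2 fold-change was -0.22 (SE 0.15, adjusted p = 0.285).

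**Figure D2:**
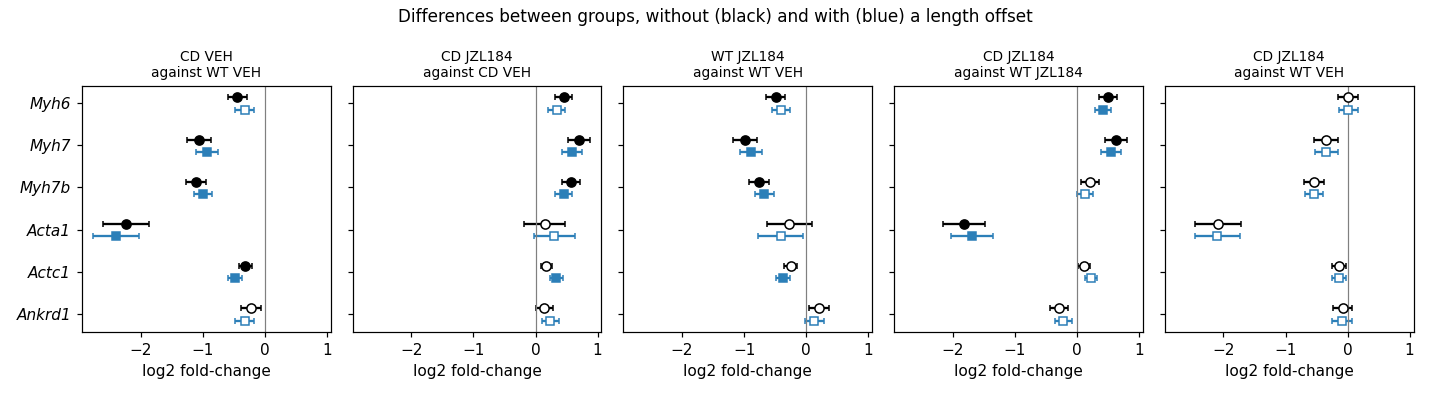
Log2 fold-change ± SE of the 6 genes in 5 comparisons between groups, from edgeR; black circles are without and blue squares with an offset for transcript length, and filled symbols have an adjusted p under 0.05. Acta1 lies near -2 in every comparison of CD with WT mice and near 0 in both comparisons of JZL184 with vehicle, whereas the myosins lie on opposite sides of 0 in CD and WT mice given JZL184.

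The treatment comparison asked what 10 days of JZL184 changed in CD hearts. The 3 myosins rose in CD JZL184, Myh7 by 1.63-fold, Myh7b by 1.48-fold and Myh6 by 1.37-fold, and neither actin nor Ankrd1 passed the test. Thus 3 of 6 members rose, where 16.8% of all genes rose, and none fell, where 17.0% did. CD VEH mice served in this comparison and in the basal one, so the basal and treatment values are not independent of each other.

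Myh6 was at 14889, 14729.9 and 15994 CPM in CD JZL184 mice A, C and E. Each of them was above the highest CD VEH mouse and close to the WT VEH mice. The log2 fold-change against CD VEH was 0.45 (SE 0.14, adjusted p = 0.0288), but the call was lost when CD JZL184 mouse A, C or E or CD VEH mouse A or E was left out (adjusted p = 0.0528 to 0.105) and with the length offset (0.34, adjusted p = 0.0768).

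Myh7 was at 174, 153 and 166 CPM in CD JZL184. These values were all above those of CD VEH and spanned that of WT VEH mouse D, while WT VEH mouse C lay well above them. The log2 fold-change against CD VEH was 0.70 (SE 0.18, adjusted p = 0.0121), and it stayed past the threshold when any mouse was left out (0.55 to 0.86) and with the length offset (0.59, adjusted p = 0.0232).

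Myh7b was at 51.6, 41.2 and 57.0 CPM in CD JZL184. All 3 mice were above CD VEH and below WT VEH. The log2 fold-change against CD VEH was 0.57 (SE 0.15, adjusted p = 0.0138), with 0.46 (adjusted p = 0.03) under the length offset, and missed the threshold without CD JZL184 mouse E or CD VEH mouse A or E (adjusted p = 0.0503 to 0.0598).

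Acta1 was at 31.2, 74.1 and 45.5 CPM in CD JZL184. The groups overlapped, with CD JZL184 mouse C above every CD VEH mouse and CD VEH mouse A below every CD JZL184 mouse. The log2 fold-change was 0.15 (SE 0.33, adjusted p = 0.756), and it turned to -0.25 without CD JZL184 mouse C and to -0.18 without CD VEH mouse A. Actc1 (0.18, SE 0.10, adjusted p = 0.171) and Ankrd1 (0.14, SE 0.14, adjusted p = 0.447) also missed the threshold. With the length offset Actc1 passed it (0.34, adjusted p = 0.0299).

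Against WT VEH, CD JZL184 hearts had 0 of 6 members past the threshold in edgeR, where 0.186% of all genes passed, with 2 members at an unadjusted p under 0.05 and 1 called by DESeq2. That member was Acta1, at a log2 fold-change of -2.09 (SE 0.37, adjusted p = 0.0519), beside -2.24 in the basal comparison. It passed when the model held WT VEH and CD JZL184 alone (adjusted p = 0.0209) and without CD JZL184 mouse C (-2.48, adjusted p = 0.02). Myh6 (0.01, SE 0.16) was nearly level with WT VEH. Myh7 (-0.35, SE 0.19) and Myh7b (-0.55, SE 0.16, adjusted p = 0.306) had lower means in CD JZL184, with overlapping mice for Myh7 and separate ones for Myh7b.

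JZL184 had the opposite direction of effect on the myosins in WT hearts. Myh7 fell 1.98-fold, Myh7b 1.69-fold and Myh6 1.41-fold in WT JZL184 against WT VEH, and the actins and Ankrd1 did not pass. Thus 3 of 6 members fell, where 14.0% of all genes fell, and none rose, where 15.4% did. The share of all genes that passed in either direction was 29.4%, and it was 4.93% without WT VEH mouse C, 9.09% without WT VEH mouse D and 14.6% in a model of the compared groups alone. The WT VEH mice are shared with the basal comparison.

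Myh6 was at 12332, 8256 and 11676 CPM in WT JZL184 mice A, B and D. All lay below WT VEH, and mouse B was the lowest of the 11 mice. The log2 fold-change was -0.49 (SE 0.16, adjusted p = 0.0343), and -0.33 (adjusted p = 0.076) without mouse B. It missed the threshold in a model of the compared groups alone (-0.47, adjusted p = 0.0976).

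Myh7 was at 94.4, 109 and 116 CPM in WT JZL184, and Myh7b at 49.8, 32.5 and 46.8 CPM. Neither overlapped WT VEH. The log2 fold-changes were -0.98 for Myh7 (SE 0.19, adjusted p = 0.00564) and -0.76 for Myh7b (SE 0.16, adjusted p = 0.00751). Without WT VEH mouse C, which left 1 mouse in that group, Myh6 (-0.51, adjusted p = 0.132), Myh7 (-0.59, adjusted p = 0.0797) and Myh7b (-0.72, adjusted p = 0.0642) missed the threshold. The difference became smaller in Myh7 and stayed close to its value with both mice in Myh6 and Myh7b. Without WT VEH mouse D, Myh6 missed it too (-0.47, adjusted p = 0.145).

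Acta1 was at 177, 195 and 159.9 CPM in WT JZL184, below both WT VEH mice, with a log2 fold-change of -0.27 (SE 0.36, adjusted p = 0.59). Actc1 was at 6026, 5160.2 and 6121 CPM (log2 fold-change -0.25, SE 0.11, adjusted p = 0.0983), and passed with the length offset (-0.37, adjusted p = 0.03) and in DESeq2. Both actins had non-overlapping groups without passing the main test. Ankrd1 was at 875, 668 and 584 CPM (log2 fold-change 0.21, SE 0.16, adjusted p = 0.329), and WT JZL184 mouse A was the highest of the 11 mice.

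The difference between the effects of JZL184 in CD and in WT mice was tested itself, as an interaction. It was 1.69 log2 units for Myh7 (SE 0.26, adjusted p = 0.000442), 1.33 for Myh7b (SE 0.22, adjusted p = 0.000604), 0.94 for Myh6 (SE 0.21, adjusted p = 0.00321) and 0.42 for Actc1 (SE 0.14, adjusted p = 0.0274). For Acta1 (0.42, SE 0.49, adjusted p = 0.494) and Ankrd1 (-0.07, SE 0.21, adjusted p = 0.805) it did not pass. Thus 4 of 6 members passed, where 51.5% of all genes tested did. The 3 myosins kept the call when any mouse was left out and with the length offset (1.48, 1.13 and 0.75 for Myh7, Myh7b and Myh6). Actc1 lost it without CD JZL184 mouse C, CD VEH mouse A, WT JZL184 mouse B or WT VEH mouse D (adjusted p = 0.0506 to 0.135).

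Values that moved with the myosins stood in the same groups. The length slope and the share of mitochondrial counts given above split WT VEH and CD JZL184, where Myh6 and Myh7 were high, from WT JZL184 and CD VEH, where they were low. Myh7b followed this split less closely, since CD JZL184 (41.2 to 57.0 CPM) overlapped WT JZL184 (32.5 to 49.8 CPM) and lay below WT VEH. The myosin transcripts are the longest of the 6. Endothelial markers (Pecam1, Cdh5, Kdr) summed to 380.1 to 382 CPM in WT VEH, 372 to 439 in CD JZL184, 472 to 527 in CD VEH and 572 to 598 in WT JZL184. Fibroblast markers (Col1a1, Col1a2, Dcn, Pdgfra) were also higher in the latter groups, with 524 to 546, 491 to 541, 623 to 695 and 669 to 820.1 CPM in the same order of groups. Macrophage markers (Adgre1, Csf1r, Cd68) summed to 48.4 to 50.1, 45.8 to 50.6, 62.4 to 73.6 and 60.2 to 94.4 CPM in that order, and smooth muscle markers (Myh11, Acta2, Tagln, Cnn1) to 78.5 to 89.4 in WT VEH, 57.4 to 73.4 in CD JZL184, at least 90.9 in every CD VEH mouse and 119.8 to 158.9 CPM in WT JZL184. Ventricular markers summed to 13096 to 13245 CPM in WT VEH, 12176 to 12648 in CD JZL184, 13979 to 14832 in CD VEH and 12948 to 15454 CPM in WT JZL184, so that CD VEH lay above WT VEH and CD JZL184, and WT JZL184 overlapped WT VEH. With the length offset, Myh7 and Myh7b kept their calls in all 3 comparisons above and Myh6 lost them. With mitochondrial genes left out before scaling, the myosin values in these comparisons stayed within 0.01 of those given, and Myh6 in CD VEH against WT VEH missed the threshold (-0.45, adjusted p = 0.0551). The part of cell composition in these differences was not tested.

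**Figure D3:**
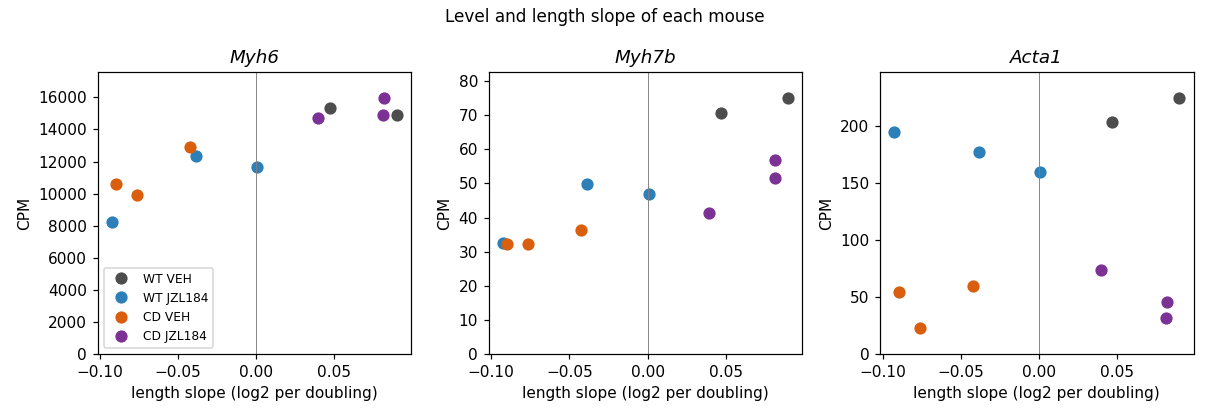
CPM of Myh6, Myh7b and Acta1 (vertical axes) against the length slope of each mouse in log2 per doubling of transcript length (horizontal axes), with 1 point per mouse coloured by group. The 5 mice of WT VEH and CD JZL184, with slopes of 0.0394 to 0.0898, have the highest Myh6 values (14729.9 to 15994 CPM), whereas Acta1 separates CD from WT mice at either end of the axis.

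The genotypes were also compared under treatment, with groups already used above. In CD JZL184 against WT JZL184, Myh6 (log2 fold-change 0.50, SE 0.14, adjusted p = 0.0161) and Myh7 (0.63, SE 0.18, adjusted p = 0.0158) were higher and Acta1 was 3.53-fold lower (-1.82, SE 0.34, adjusted p = 0.00238). That made 3 of 6 members, where 38.3% of all genes passed in either direction. Myh7b (0.21, SE 0.15), Actc1 (0.11, SE 0.10) and Ankrd1 (-0.29, SE 0.14, adjusted p = 0.118) did not pass. Myh6 missed the threshold without CD JZL184 mouse E (adjusted p = 0.0555) and Myh7 without CD JZL184 mouse A (adjusted p = 0.0514), while Ankrd1 passed it without WT JZL184 mouse D (-0.41, adjusted p = 0.0374).

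Over both treatments, 1 of 6 members differed between CD and WT mice, where 1.09% of all genes did. This was Acta1, at a log2 fold-change of -2.03 (SE 0.25, adjusted p = 0.00194), and between -2.22 and -1.87 when each mouse was left out. All 6 CD mice were below all 5 WT mice, and with the length offset the value was -2.04. Myh7b had a log2 fold-change of -0.45 (SE 0.11, adjusted p = 0.0751), which passed without WT JZL184 mouse B (-0.54, adjusted p = 0.00656). Myh7 (-0.21, SE 0.13), Ankrd1 (-0.26, SE 0.10, adjusted p = 0.287), Actc1 (-0.10, SE 0.07) and Myh6 (0.03, SE 0.11) missed the threshold.

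The ratio of the isoforms within a mouse needs no library scaling. The Acta1 to Actc1 ratio, per transcript length, was 3.57% and 2.85% in WT VEH mice C and D, and 2.998%, 3.84% and 2.66% in WT JZL184 mice A, B and D. In CD VEH it was 0.450%, 1.11% and 0.923% (mice A, C and E), and in CD JZL184 0.538%, 1.15% and 0.752% (mice A, C and E). Every CD mouse was below every WT mouse, and treated and vehicle mice overlapped in both genotypes. The log2 difference between CD and WT, permuting mice within treatment, was -2.03 (exact permutation test, two-sided, p = 0.005, the smallest p that the 200 regroupings allow, and 0.06 after adjustment over 12 ratio tests). Within VEH it was -2.04 and within JZL184 -2.02, each with an exact permutation p = 0.1, the smallest these group sizes allow. JZL184 against vehicle within genotype gave -0.01 (exact permutation test, p = 0.96).

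The Myh7 to Myh6 ratio, on the same per-length scale, was 1.71% and 1.02% in WT VEH, and 0.751%, 1.29% and 0.972% in WT JZL184. It was 1.04%, 0.916% and 0.724% in CD VEH, and 1.15%, 1.02% and 1.02% in CD JZL184. Every pair of groups overlapped, and WT VEH mouse C was the highest mouse. CD against WT within treatment gave a log2 difference of -0.24 (exact permutation test, p = 0.385) and JZL184 against vehicle within genotype -0.08 (exact permutation test, p = 0.755). The 4 tests between single groups gave p-values of 0.2 to 0.7 (exact permutation tests), and none of the 6 tests of this ratio passed after adjustment (0.6 to 1.0). These p-values do not show that the ratio was equal, since the groups are small and the genes share reads as given above.

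**Figure D4:**
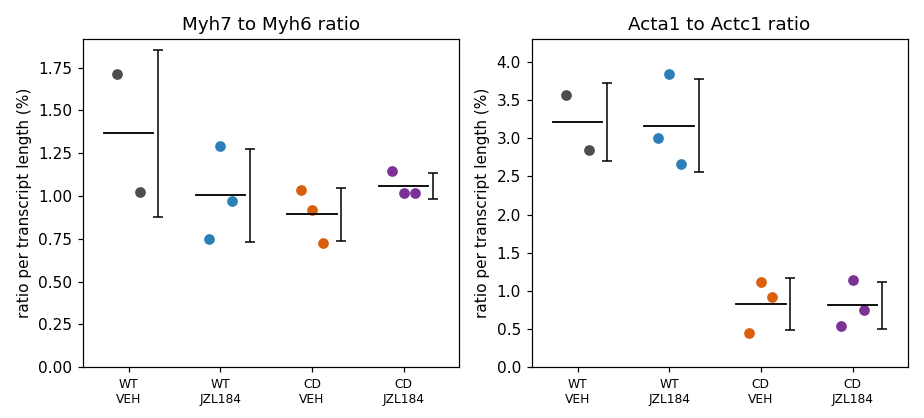
Ratio of Myh7 to Myh6 and of Acta1 to Actc1 in each mouse, in percent per transcript length, by group; points are mice, bars are means and error bars are SD (n = 2 in WT VEH, n = 3 in the others). The actin ratio is 2.66% to 3.84% in WT and 0.450% to 1.15% in CD mice, and the myosin ratio overlaps between genotypes.

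Across the 11 mice, the log2 levels of the 3 myosins varied together (Pearson r of 0.723 for Myh6 with Myh7, 0.783 for Myh6 with Myh7b and 0.781 for Myh7 with Myh7b), and Actc1 followed Myh6 (0.756) and Myh7b (0.764). Acta1 did not follow Myh6 (-0.0125) or Myh7 (0.169), and its highest value with a member was that with Ankrd1 (0.587). These correlations are descriptions over mice that fall into 4 groups and share library scaling. Among all tested genes, the patterns most like that of Acta1 were those of Abhd11 (0.961) and Dnajc30 (0.941), both inside the deleted interval, followed by Fam81a (0.932). For Myh6 they were Hk2 (0.993), Iars (0.992) and Cs (0.982), for Myh7 Znrf2 (0.973), Eps15l1 (0.970) and Prkacb (0.967), and for Myh7b Zbtb38 (0.972), Nktr (0.969) and Ccnt2 (0.963). Actc1 was most like Nupl2 (0.982), Ogfrl1 (0.955) and Egln3 (0.943). Ankrd1 was less like any gene, with Gtf2h1 (0.887), Nppb (0.855), the brain natriuretic peptide gene, and Grpel2 (0.844).

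The related genes of the sarcomere were taken as lists. Of the 11 other myosin heavy chains 4 were expressed enough to be tested. In CD VEH against WT VEH, Myh11, the smooth muscle myosin (0.70, SE 0.21), and Myh9 (0.31, SE 0.08), a nonmuscle myosin, rose and Myh14 (-0.47, SE 0.08), another nonmuscle myosin, fell. Each of these took the other direction under JZL184 in CD mice (-0.65, -0.35 and 0.57) and the basal direction under JZL184 in WT mice (1.28, 0.40 and -0.42), with all 9 values past the threshold. Of all genes, 15.0% rose and 15.4% fell in the basal comparison, 16.8% and 17.0% under JZL184 in CD mice, and 15.4% and 14.0% in WT mice. Without either WT VEH mouse, 1 of the 3 passed in the basal comparison, and without WT VEH mouse D 1 passed in WT mice. Myh11 is also 1 of the smooth muscle markers above, whose sums differed between the groups. Of the 4 other actins 3 were tested. The cytoplasmic actins Actg1 (0.64, SE 0.14) and Actb (0.56, SE 0.13) rose in CD VEH against WT VEH, unlike the sarcomeric actins, and fell under JZL184 in CD mice (-0.58 and -0.59). Without either WT VEH mouse, 0 other actins passed in the basal comparison. Acta2, the smooth muscle actin, did not pass in either comparison (-0.15 and -0.40). In WT mice under JZL184, Actb rose (0.44, adjusted p = 0.0243), where 15.4% of all genes did, and Actg1 (0.35) and Acta2 (0.34) did not pass. There 0 other actins passed without WT JZL184 mouse B or D (18.5% and 25.6% of all genes), and 2 without mouse A (39.6%). Between genotypes under JZL184, Acta2 was lower in CD mice (-0.89, adjusted p = 0.00283), where 38.3% of all genes passed in either direction.

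Among the thick filament partners of the myosins, 3 of 5 tested genes fell in CD VEH against WT VEH, where 15.4% of all genes did, and none rose, with a median log2 fold-change of -0.54 beside 0.0087 over all genes tested. They were the giant elastic protein gene Ttn (-1.07, SE 0.30) and the M-band genes Myom1 (-0.64, SE 0.15) and Myom2 (-0.54, SE 0.14). Under JZL184 in CD mice Myom2 (0.54), Myom1 (0.48) and Mybpc3 (0.40), the myosin-binding protein C gene, rose, and the same Ttn, Myom1 and Myom2 fell in WT mice (-1.04, -0.54 and -0.47). With the length offset, Ttn, the longest of these transcripts, was at -0.29 (adjusted p = 0.193) in the basal comparison and at -0.44 (adjusted p = 0.0616) in WT mice, while Myom1 and Myom2 kept their calls, and Mybpc3 missed the threshold under JZL184 in CD mice (0.37, adjusted p = 0.0534). Without WT VEH mouse C the number called was 0 in both comparisons with WT VEH, and without WT VEH mouse D it was 1 and 0, beside 3.4% and 4.93% of all genes without mouse C and 10.7% and 9.09% without mouse D. The number was 1 in the basal comparison without CD VEH mouse E (17.5% of all genes, beside 30.4% with every mouse). In WT mice it was 1 without WT JZL184 mouse B (18.5% beside 29.4%). Under JZL184 in CD mice it was 1 without CD JZL184 mouse A or E (21.6% and 19.0%) or CD VEH mouse A or E (18.5% and 18.0%), beside 33.8%. A model of the compared groups alone called 5 in the basal comparison, 5 under JZL184 in CD mice and 1 in WT mice. It called 35.0%, 41.4% and 14.6% of all genes in these comparisons. Of 7 thin filament partners, Lmod2 (-0.69, SE 0.14) and Tmod1 (-0.37, SE 0.09), which control the pointed ends of actin filaments, fell in CD VEH (15.4% of all genes did), while troponins Tnnt2, Tnni3 and Tnnc1 and tropomyosin Tpm1 did not pass (-0.15 to 0.24). Lmod2 (0.39) and Tmod1 (0.30) rose under JZL184 in CD mice, and Tmod1 (-0.39, adjusted p = 0.0085) and Nebl (-0.58, adjusted p = 0.0394) fell in WT mice, where the number called was 0 without either WT VEH mouse or with the compared groups alone, and Nebl missed the threshold with the length offset (-0.45, adjusted p = 0.0797). The number of thin filament partners called was 0 without WT VEH mouse C and 1 without WT VEH mouse D in the basal comparison. Under JZL184 in CD mice it was 0 without CD VEH mouse A and 1 without CD VEH mouse E or CD JZL184 mouse A or E. The shares of all genes called in these fits, in that order, were 18.5%, 18.0%, 21.6% and 19.0%, beside 33.8% with every mouse. More thin filament partners were called by DESeq2 and in a model of the compared groups alone, 4 by each in the basal comparison. Under JZL184 in CD mice each called 5, and upper quartile scaling gave 4. Of all 11319 genes, DESeq2 and the compared groups alone called 3913 and 3959 in the basal comparison, beside 3440 in the main test. Under JZL184 in CD mice they called 4245 and 4687, and upper quartile scaling 3802, beside 3831. Of 4 tested light chain genes, the cardiac myosin light chain kinase Mylk3 fell in CD VEH (-0.35, SE 0.09), where 15.4% of all genes fell, rose under JZL184 in CD mice (0.31) and fell in WT mice (-0.34). Myl2, the ventricular regulatory light chain, took the other direction, with 0.25 (SE 0.11, adjusted p = 0.0983) in CD VEH, a fall under JZL184 in CD mice (-0.35, adjusted p = 0.0165) and an interaction of -0.50 (adjusted p = 0.0117), but its value under JZL184 in CD mice was -0.07 with the length offset (adjusted p = 0.602). Leaving out CD VEH mouse E left 0 genes of this list called in the basal comparison, where 17.5% of all genes passed. Under JZL184 in CD mice 0 were called without CD JZL184 mouse E or CD VEH mouse E (19.0% and 18.0% of all genes). The basal number was 4 by DESeq2, 3 with the length offset and 3 in a model of the compared groups alone. These fits called 3913, 2662 and 3959 of all 11319 genes, beside 3440 in the main test. In WT mice Mylk3 was the 1 gene of this list called. The number was 0 without WT JZL184 mouse B or D (18.5% and 25.6% of all genes). It was 0 with the compared groups alone (14.6% of all genes) and 2 with the length offset (3026 of 11319 genes). Ankrd23, the tested relative of Ankrd1, did not pass in these comparisons.

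Other genes known to respond in the hypertrophic heart fell in 4 of 8 cases in CD VEH against WT VEH, where 15.4% of all genes fell, and rose in none. These were Rcan1 (-0.95, SE 0.24), a calcineurin target, Xirp1 (-0.53, SE 0.12), Atp2a2 (-0.37, SE 0.11), the calcium pump of the sarcoplasmic reticulum, and Fhl1 (-0.21, SE 0.07). The list was not split by the direction that its genes take in hypertrophy. The natriuretic peptide genes Nppa (-0.91, SE 0.38, adjusted p = 0.0838) and Nppb (-0.70, SE 0.39, adjusted p = 0.189) did not pass. Under JZL184 in CD mice Atp2a2 (0.50) and Xirp1 (0.37) rose and Csrp3 (-0.29), a Z-disc gene, fell. In WT mice Atp2a2 (-0.49, adjusted p = 0.01) and Fhl1 (-0.39, adjusted p = 0.00379) fell. The number called in the basal comparison was 2 without CD VEH mouse A or without a filter on low counts, 1 without WT VEH mouse C and 0 without WT VEH mouse D. Over all genes the share called in these fits was 17.0%, 16.8%, 3.4% and 10.7%, beside 30.4% with every mouse and the filter. Under JZL184 in CD mice the number was 1 without CD VEH mouse E, where 18.0% of all genes passed beside 33.8% with every mouse. In WT mice it was 1 with the compared groups alone and 5 without WT JZL184 mouse A. The share of all genes in these fits was 14.6% and 39.6%, beside 29.4% in the main test. When each mouse was left out, WT values stayed between -0.56 and -0.39 for Atp2a2 and between -0.43 and -0.36 for Fhl1. With the length offset, Atp2a2 in the basal comparison (-0.27, adjusted p = 0.0883) and Xirp1 under JZL184 in CD mice (0.27, adjusted p = 0.083) missed the threshold.

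The regulators known for these promoters were 20 genes, all of them tested. In CD VEH against WT VEH 8 fell, where 15.4% of all genes did, and none rose, led by Myocd (-0.75, SE 0.11), a coactivator of serum response factor, Tead1 (-0.63, SE 0.09), which binds MCAT elements, and the thyroid hormone receptor Thrb (-0.54, SE 0.14), followed by Mef2a (-0.33), Gata4 (-0.32), Mef2d (-0.32), Yap1 (-0.29) and Smarca4 (-0.25). Srf itself did not pass (-0.17, SE 0.10, adjusted p = 0.188). Under JZL184 in CD mice 14 rose, where 16.8% of all genes did, and none fell (17.0% of all genes), with Myocd (0.63), Tead1 (0.62) and Sox6 (0.56) first. In WT mice 6 fell (14.0% of all genes), with Myocd (-0.85) and Tead1 (-0.63) first, and Wwtr1 (0.23) rose. The median log2 fold-change of the 20 genes was -0.22, 0.28 and -0.20 in these comparisons, beside 0.0087, -0.0024 and -0.0026 over all genes. Of the 20, the number that passed in the basal comparison was 2 without WT VEH mouse C, 4 without WT VEH mouse D or CD VEH mouse E, 5 without CD VEH mouse A and 10 without CD VEH mouse C. The share of all genes called was 3.4% without WT VEH mouse C, 10.7% and 17.5% without WT VEH mouse D and CD VEH mouse E, 17.0% without CD VEH mouse A and 31.2% without CD VEH mouse C. Under JZL184 in CD mice the number was 9 without CD JZL184 mouse E or CD VEH mouse E (19.0% and 18.0% of all genes). In WT mice it was 2 without WT VEH mouse C, 4 without WT VEH mouse D and 3 with the compared groups alone (4.93%, 9.09% and 14.6% of all genes).

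**Figure D5:**
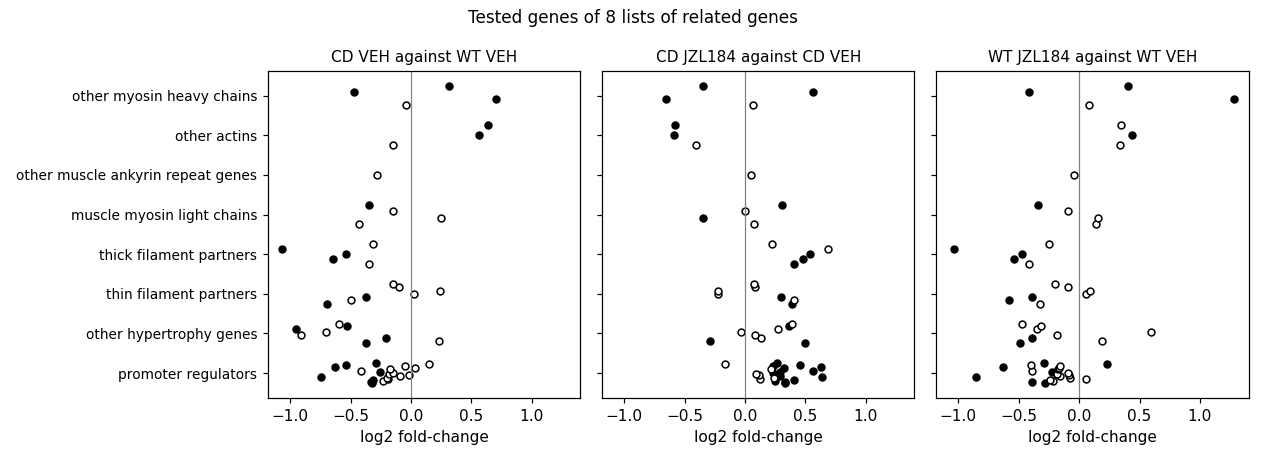
Log2 fold-changes of the tested genes of 8 lists of related genes (rows) in 3 comparisons (panels); each point is a gene, filled where the adjusted p is under 0.05. In CD VEH against WT VEH the 8 called regulators all lie left of 0, under JZL184 in CD mice the 14 called ones all lie right of 0, and in WT mice 6 of 7 called ones lie left.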

How the data were processed

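RNA from mouse hearts was extracted with TRIzol and sequenced on a HiSeq3000 by the authors, who used Salmon 0.7.2 (transcripts of GRCm38, Ensembl release 85). The authors deposited estimated counts per gene and mouse, summed over transcripts and not normalized. Columns name the group and a letter, so that mice are called by that letter and could not be matched to the replicate numbers of the labels. Mice were taken as replicates, and p-values measure the spread between them.

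After rounding, edgeR 4.0.16 (R 4.3.3) was applied (TMM scaling, all 4 groups in 1 quasi-likelihood model without robust estimation, 7 residual degrees of freedom) over the 11319 genes whose average log2 CPM was 1 or more, with Benjamini-Hochberg adjustment over all of them. The common biological coefficient of variation was 9.13%. GENCODE mouse release 21, matched to 22238 of 22608 identifiers, gave symbols, positions and lengths. Overlapping antisense genes Gm17428 (Myh7), Trpc4ap (Myh7b) and Gm20388 (Acta1) have rows of their own, and whether counting used strand is not given in the sources used here. Shared 31-base words were counted because transcript quantification divides reads by such words. Ratios were compared by exact two-sided permutation tests.

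The members, lists and markers were chosen with earlier results of these data known. Named genes are the members, the listed related genes and the 3 genes most correlated with each member. Alternatives were DESeq2 1.42.0, RLE and upper quartile scaling, other filters, only the compared groups, offsets for length and GC content (loess, span 0.5), no mitochondrial genes and leaving out each mouse. In simulated counts of CD VEH against WT VEH for 11319 genes, 100 genes were changed at each fold and all others had the same mean in every group. There edgeR recovered 78% of genes changed 1.5-fold and 98% of those changed 2-fold, with 3.3% of its calls false. DESeq2 recovered 83% and 98%, with 10.4% of its calls false. No shift with transcript length was simulated, and far fewer genes differed than were called in the data, so these rates may not hold there. Floors cover counting error only.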

Additional observations from a re-analysis of the deposited data

Results flagged for a closer look

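A total of 4 member genes differed between CD and WT mice in their response to JZL184, by a test of the difference itself in edgeR: Myh7 by 1.69 log2 units, Myh7b by 1.33, Myh6 by 0.94 and Actc1 by 0.42 (CD minus WT). In Myh7, Myh7b and Myh6 each CD JZL184 mouse was above every CD VEH mouse and each WT JZL184 mouse was below both WT VEH mice. The same test passed for 51.5% of all genes. The length slope and the mitochondrial share of the mice changed in the same pattern. With the length offset the values were 1.48, 1.13, 0.75 and 0.71, and without mitochondrial genes 1.69, 1.34, 0.95 and 0.43, and all 4 calls held in both. Endothelial, fibroblast and macrophage marker sums also differed between these groups, and the part of cell composition was not tested.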

How the results depend on the processing

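With 2 WT VEH mice, values that use this group rest on few animals. The number of members called in CD VEH against WT VEH was 3 under upper quartile scaling, without a filter and with at least 10 counts in every mouse, since Myh6 and Actc1 lay at the threshold, and 2 to 4 when each mouse was left out (2 without WT VEH mouse C, where 3.4% of all genes passed beside 30.4% with every mouse). For WT JZL184 against WT VEH, Myh6 lost its call without WT JZL184 mouse B, where 18.5% of all genes passed beside 29.4% with every mouse. Without WT VEH mouse C, Myh7 moved from -0.98 to -0.59 there. For CD JZL184 against CD VEH, 18.0% to 34.5% of all genes passed by leaving out mice, beside 33.8% with every mouse. The number of members called there was 1 to 3. For CD JZL184 against WT VEH it was 1 (Acta1) under DESeq2, without a filter, with at least 10 counts, with the GC offset, without mitochondrial genes and with only the compared groups, and 0 to 1 by leaving out mice. Over both treatments it was 2 under DESeq2 and without a filter, and 1 to 2 by leaving out mice.

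The values below changed sign, and none of them passed the test in the fit described above. With the GC offset, Myh6 was at -0.040 in CD JZL184 against WT VEH and at -0.0018 over both treatments, and with the length offset the interaction of Ankrd1 was 0.11; the cause was not tested. Leaving out mice gave -0.25 to 0.40 for Acta1 under JZL184 in CD mice. For CD JZL184 against WT VEH it gave -0.029 to 0.031 for Myh6, -0.66 to 0.042 for Myh7 and -0.21 to 0.054 for Ankrd1. It gave -0.052 to 0.080 for Myh6 over both treatments and -0.20 to 0.12 for the interaction of Ankrd1. The Myh7 to Myh6 ratio ranged from -0.27 to 0.10 for JZL184 within genotype and from -0.080 to 0.31 for CD JZL184 against WT JZL184. The Acta1 to Actc1 ratio ranged from -0.19 to 0.14 for WT JZL184 against WT VEH, -0.39 to 0.26 for CD JZL184 against CD VEH and -0.21 to 0.12 within genotype. Acta1 and Myh7b in CD VEH against WT VEH kept direction and call under every alternative. No paired analysis was possible because the columns of the table do not carry the replicate numbers of the labels; they carry letters that no label explains, and a block on these letters was not fitted.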
